A study of Mus musculus with 13 samples.

Results

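Shox2-positive, Myl2-low cardiomyocytes of the developing mouse heart were taken from single-cell RNA sequencing of hearts from embryos (E12.5, then E14.5 and E16.5) and from pups 3 days after birth (P3). They were chosen by measured values of the same libraries. A barcode was kept with at least 2000 unique molecular identifiers (UMIs, each counting 1 captured transcript), 500 genes and 1% mitochondrial UMIs. Among these, a member had at least 1500 CPM (UMIs scaled to 1000000 over all genes of the barcode) of the cardiac troponin T gene Tnnt2, under 500 CPM of the ventricular myosin light chain gene Myl2, and at least 1 UMI of Shox2. The rule gave 198 members out of 2016 barcodes in the same Tnnt2 and Myl2 gate, 36651 heart barcodes and 65098 barcodes of all matrices analysed. The other 1818 barcodes of the gate, with no Shox2 UMI, were the comparison set, always within the same library.

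All mice were wild-type C57Bl/6J, with no allele, agent or treatment. Each embryonic stage had 2 heart libraries, described by the submitters as biological replicates, and E16.5 replicate 1 joined 2 sample records. E10.5 embryos, digested without head and limbs, gave 2 libraries used only to check named genes. The 2 P3 records were deposited as 1 pooled matrix and used as 1 sample, so P3 values have no replicate check and no test. Barcode suffixes 1 and 2 held 13 and 6 of its members, and no label ties them to the 2 records. Poisson intervals given for P3 cover counting error only, not the spread between cells or animals. The number of animals behind a library is not given in the sources used here. The p-values below measure the spread between libraries. Those given with no filter on low counts rest on a spread shared over genes, not on each gene's own.

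The sinus venosus is the inflow part of the embryonic heart tube, and its myocardium gives rise to the sinoatrial node, the natural pacemaker. Shox2 is a homeodomain transcription factor of this region and holds back the chamber factor Nkx2-5 in the node. Tbx3, a T-box repressor, keeps conduction tissue from taking on the fast-conducting chamber program, which includes the natriuretic peptide Nppa and the connexins Gja1 and Gja5. The pacemaker current runs through channels built from Hcn4, and Isl1 and Tbx18 mark the progenitors of the venous pole.

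Promoters of genes on which the results turn are shown first, since T-box, NK2 and homeodomain factors recur below. Each window runs from 250 bases before the annotated start to 50 after it, 5′ to 3′ on the gene's strand, from RefSeq (GRCm38.p6). Capitals mark AGGTGT (a T-box core) and TNAAGTG (an NK2 site), searched on both strands together with the homeodomain core TAATTA. The windows are Shox2 (chr3:66981722-66982021, minus strand), the gene that chose the cells, Igfbp5 (chr1:72874816-72875115, minus strand), which was higher in them, Nppa (chr4:148000472-148000771, plus strand), which was lower, and Hcn4 (chr9:58822699-58822998, plus strand).
Shox2: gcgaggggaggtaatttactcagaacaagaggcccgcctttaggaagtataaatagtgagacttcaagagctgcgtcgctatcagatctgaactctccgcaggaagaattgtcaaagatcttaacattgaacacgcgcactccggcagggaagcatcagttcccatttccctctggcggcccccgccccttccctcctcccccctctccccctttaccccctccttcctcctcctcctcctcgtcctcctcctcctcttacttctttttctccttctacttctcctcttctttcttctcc
Igfbp5: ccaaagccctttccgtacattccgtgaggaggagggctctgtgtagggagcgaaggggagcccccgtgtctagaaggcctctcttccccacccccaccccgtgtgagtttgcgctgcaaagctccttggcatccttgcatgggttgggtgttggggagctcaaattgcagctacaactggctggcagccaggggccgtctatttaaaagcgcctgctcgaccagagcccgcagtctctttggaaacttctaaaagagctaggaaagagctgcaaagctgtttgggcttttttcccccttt
Nppa: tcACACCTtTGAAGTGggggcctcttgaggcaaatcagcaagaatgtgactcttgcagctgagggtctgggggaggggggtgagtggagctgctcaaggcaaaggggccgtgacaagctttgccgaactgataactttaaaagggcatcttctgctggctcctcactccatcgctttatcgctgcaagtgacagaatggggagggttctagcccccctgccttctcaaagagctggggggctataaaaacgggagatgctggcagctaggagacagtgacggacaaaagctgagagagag
Hcn4: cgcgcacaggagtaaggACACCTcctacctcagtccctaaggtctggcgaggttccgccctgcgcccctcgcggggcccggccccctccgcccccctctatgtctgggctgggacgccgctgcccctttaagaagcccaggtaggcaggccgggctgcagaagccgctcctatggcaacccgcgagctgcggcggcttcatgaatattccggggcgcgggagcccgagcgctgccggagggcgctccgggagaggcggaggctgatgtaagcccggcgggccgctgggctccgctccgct

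In Nppa the T-box letters lay on the opposite strand with their first base at -248 from the start, next to the NK2 letters at -241, and the 2 matches did not overlap. Hcn4 held the T-box letters once, at -233, and TAATTA was in none of the 4 windows printed. AGGTGT occurred in 13.7% of all 32851 promoter windows, TNAAGTG in 11.5% and TAATTA in 5.29%. These matches are descriptions of the letters in the windows.

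Shox2-positive cells took a smaller share of the gate at each later stage. The E12.5 hearts held 43 of 202 and 58 of 246, shares of 21.3% (exact 95% binomial interval 15.9 to 27.6) and 23.6% (18.4 to 29.4). For E14.5 the numbers were 25 of 209 and 16 of 141, or 11.96% (7.89 to 17.1) and 11.3% (6.63 to 17.8). The E16.5 pair gave 20 of 208 and 17 of 234, or 9.62% (5.97 to 14.46) and 7.26% (4.29 to 11.4). In the P3 matrix 19 of 776 were positive, or 2.45% (1.48 to 3.80). The E12.5 intervals did not overlap those of E16.5 or P3. Both E14.5 intervals overlapped that of E12.5 replicate 1 and those of both E16.5 libraries. The intervals cover counting error only.

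A Shox2 UMI was also counted in other cells of the same libraries, for comparison. Among 21228 cardiomyocytes above the Myl2 limit 0.412% to 1.51% of barcodes carried a Shox2 UMI, and among endothelial barcodes (at least 2 UMIs of Pecam1 and Cdh5) 0.217% to 1.03% did. The gate share therefore stood above both in each library, although at P3 its interval overlapped that of the endothelial barcodes. With every barcode thinned to 2000 UMIs, which left none out, the gate shares were 10.4% and 13.0% (E12.5), 6.22% and 4.96% (E14.5), 3.37% and 2.56% (E16.5) and 0.644% (P3), again smaller at each later stage. The thinning was a single random draw, and its shares are given with no interval. Median depth in the gate was 21481 and 22248 UMIs for E12.5, 12508 to 19950 for the other embryonic libraries and 14898.5 for P3. It was 10748 to 22365.5 for endothelial barcodes and 14188 to 25813 above the Myl2 limit.

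**Figure D1:**
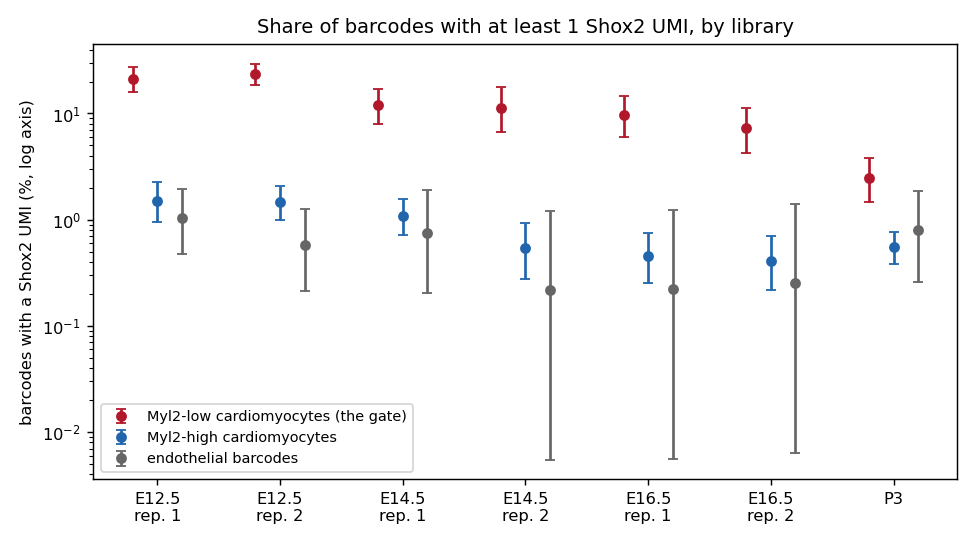
Percent of barcodes with at least 1 Shox2 UMI in each library (log axis) for the Myl2-low cardiomyocyte gate, Myl2-high cardiomyocytes and endothelial barcodes. Points are shares and bars exact 95% binomial intervals; the gate fell from 23.6% at E12.5 to 2.45% at P3 while the other populations stayed under 1.6%.

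How much Shox2 a member held varied widely. The median per library was 7, 5.5, 5, 2, 4 and 3 UMIs in the embryonic libraries in order of stage and replicate and 3 in P3, with up to 45 UMIs in 1 barcode. Members with a single UMI numbered 6, 15, 6, 6, 3 and 5 in the embryonic libraries and 9 of 19 at P3, so the limit of 1 UMI decides more of the P3 members than of the others. At the Myl2 limit, 50 members lay between 400 and 500 CPM and 28 otherwise alike barcodes between 500 and 600. At the Tnnt2 limit, 11 members lay between 1500 and 1800 CPM and 2 barcodes between 1200 and 1500. Gate barcodes shared between libraries numbered 5, over 4 of 21 pairs.

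The label of sinus venosus cells was checked against the markers given with it. Vsnl1, a neuronal calcium sensor, fitted it: summed over the members of each library it stood at 239.8, 218, 146, 111, 98.0 and 184 CPM in the embryonic libraries, in order of stage and replicate, and 293 at P3. In Shox2-negative cells it stood at 35.9, 38.7, 29.5, 33.3, 28.0 and 29.9 CPM in the embryonic libraries and 15.5 at P3, so the sets did not overlap. The difference was 4.96-fold (log2 2.31 ± 0.15 SE, n = 6 libraries, edgeR adjusted p = 3.64e-09).

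Hcn4 and Isl1 fitted the label only in part. Hcn4 stood at 5.88, 7.46, 5.83, 0, 17.6 and 54.2 CPM in the members of the embryonic libraries and at 69.4 at P3 (exact 95% Poisson interval 43.5 to 105), against 0.470 to 3.05 CPM in Shox2-negative cells. It was higher in 5 of 6 embryonic libraries (exact sign-flip permutation test over libraries, two-sided p = 0.09375, smallest possible 0.03125), and it was too low to pass the filter on counts. With no filter it was called higher (log2 3.37 ± 0.48 SE, edgeR adjusted p = 3.12e-10). That fit used a spread shared over genes, so this p does not measure the spread of Hcn4 between libraries. A Hcn4 UMI was seen in 26 of 198 members, with shares of 30.0% and 29.4% at E16.5 and 8% to 9.3% in 3 of the earlier libraries.

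Isl1 at E12.5 stood at 23.5 and 21.4 CPM in members and 11.4 and 20.9 in Shox2-negative cells, level in replicate 2 alone. At E16.5 Shox2-negative cells held no Isl1 UMI, and in each library 1 member held all 3 UMIs of the set, which stood at 7.53 and 10.8 CPM. It was higher in 5 of 6 libraries (exact sign-flip permutation test, two-sided p = 0.09375), and the difference did not pass (log2 0.78 ± 0.44 SE, edgeR adjusted p = 0.395).

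Nkx2-5, the chamber factor that is low in the head of the sinoatrial node, was not lower over all libraries, though it was in both E16.5 libraries. Members held 377, 370.0, 245, 307, 156 and 145 CPM in the embryonic libraries, and Shox2-negative cells 322, 323, 266, 240.2, 232 and 268. Over the 6 libraries the difference was -0.14 ± 0.14 SE on the log2 scale (edgeR adjusted p = 0.675), and a Nkx2-5 UMI was found in 167 of 198 members. The members are therefore named here by their rule, as Shox2-positive cells.

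Across the 6 embryonic libraries, 442 of 8444 genes differed between Shox2-positive and Shox2-negative cells (5.23%), 244 higher (2.89%) and 198 lower (2.34%) in the positive cells. The median log2 difference over all genes was -0.0016. Among genes with a mean log2 CPM of at least 5 and 1 direction in all 6 libraries, those that rose included Igfbp5, Vsnl1, Id2, Vcan and Rgs6 and those that fell Uts2b, Kcnh7, Bmp10, Tnnt1 and Gja1. Other genes shifted more, among them Pvalb (log2 5.07 ± 0.28 SE), Wnt2 and Smoc2. The count fell to 280 without E12.5 replicate 2, to 275 without E14.5 replicate 1 and to 244 (of 6980 genes tested) when barcodes with 3 or more UMIs of endothelial and mesenchymal markers were left out. That step kept 21 of 43 and 29 of 58 members at E12.5, against 104 of 159 and 117 of 188 Shox2-negative barcodes. It kept 16 of 25, 11 of 16, 15 of 20 and 14 of 17 members in the later embryonic libraries and 10 of 19 at P3.

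Members were shallower than Shox2-negative cells in 5 of 6 embryonic libraries. Their median was 19077, 17977, 12910, 9918.5, 19155 and 16622 UMIs, against 23792, 22866.5, 16832, 13130, 19990.5 and 14559. Only E16.5 replicate 2 had the deeper members. With each member set against the Shox2-negative barcode nearest to it in UMIs, 125 of 4083 genes differed.

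**Figure D2:**
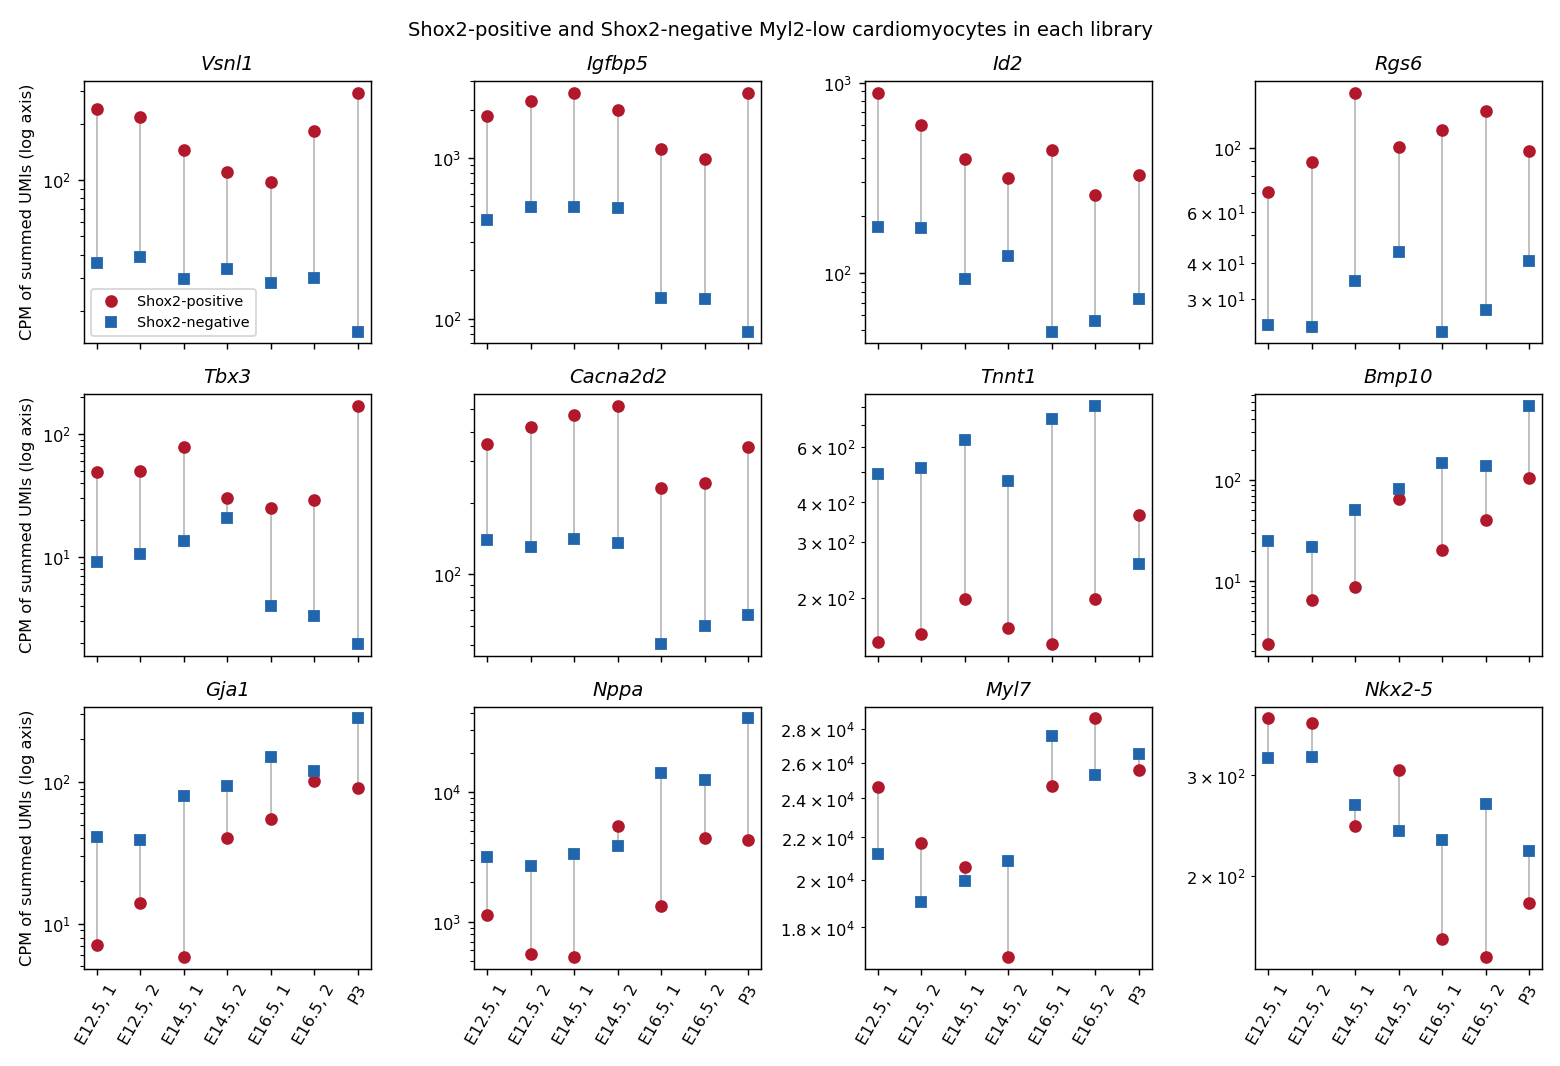
CPM of summed UMIs (log axis) of 12 genes in Shox2-positive (circles) and Shox2-negative (squares) Myl2-low cardiomyocytes, joined within each library, for 6 embryonic libraries and the pooled P3 matrix. Vsnl1, Igfbp5, Id2, Rgs6, Tbx3 and Cacna2d2 were higher in the positive cells in all 7 and Bmp10 and Gja1 lower in all 7, while Nppa was lower in all but E14.5 replicate 2, Tnnt1 in all but P3, and Myl7 and Nkx2-5 crossed.

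Igfbp5, a secreted binding protein for insulin-like growth factors, had the smallest p of the named genes. Its level in members was 1830.0, 2257, 2536, 1986, 1138 and 980.0 CPM in the embryonic libraries and 2538 at P3. Shox2-negative cells had 411, 496, 498, 486, 135 and 133 CPM in the embryonic libraries and 83.0 at P3. The sets did not overlap, and the difference was 5.20-fold (log2 2.38 ± 0.12 SE, edgeR adjusted p = 1.2e-10). An Igfbp5 UMI was found in 193 of 198 members.

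Id2, Id3 and Id1, known targets of bone morphogenetic protein (BMP) signals, were among the named genes that rose. Id2, a helix-loop-helix protein that blocks DNA binding of its partners, stood at 883, 601, 396, 317, 442 and 257 CPM in members of the embryonic libraries and 174, 173, 93.7, 123, 49.3 and 55.8 in Shox2-negative cells (log2 2.12 ± 0.15 SE, edgeR adjusted p = 2.39e-08). Each library showed the same direction, with a ratio of 2.58 to 8.96. Its relatives Id3 (log2 1.70 ± 0.18 SE) and Id1 (1.48 ± 0.28 SE) and the BMP pseudoreceptor Bambi (0.87 ± 0.11 SE) also rose, with edgeR adjusted p of 4.32e-06, 0.00232 and 3.52e-05. Bambi was added after its value was seen.

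The ligands themselves split. Bmp4, which acts in the venous pole, stood at 255 and 222 CPM in members at E12.5 against 72.8 and 89.9, and at 60.3 and 28.9 at E16.5 against 1.62 and 0. E14.5 replicate 2 went the other way, at 25.1 against 36.7 CPM. The difference passed over 6 libraries (log2 1.87 ± 0.36 SE, edgeR adjusted p = 0.00273), but not by DESeq2's Wald test. Bmp10, a ligand of trabecular and atrial muscle, was lower in members in each library, at 2.35, 6.52, 8.74, 65.4, 20.1 and 39.8 CPM against 24.7, 21.8, 50.1, 81.4, 149 and 137 (4.00-fold lower, log2 SE 0.26, edgeR adjusted p = 6.26e-05).

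Wnt2, a Wnt ligand of the inflow region, was highest in the E12.5 members. They held 99.9 and 117 CPM against 7.28 and 7.04, while members of the later embryonic libraries held 0 to 23.3 CPM against 0 to 0.921 and those of P3 37.8 against 0.426 (log2 4.04 ± 0.27 SE, edgeR adjusted p = 1.77e-08). Fst, whose product follistatin binds activins and BMPs, stood at 199.8, 147, 58.3 and 146 CPM in members at E12.5 and E14.5 against 16.4 to 26.5. At E16.5 it had fallen to 0 and 3.62 CPM, below the 4.58 and 2.44 CPM of Shox2-negative cells in replicate 1 and above it in replicate 2. Wnt5a, another Wnt ligand, was lower (log2 -1.36 ± 0.21 SE, edgeR adjusted p = 0.00037).

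The gene lists that follow were chosen with earlier results of these data known. Their counts stand beside 2.89% of all genes higher and 2.34% lower. Among 11 transcription factors of the venous pole and node, 2 were higher, none lower and 9 did not pass, with a median log2 difference of 0.40. Tbx3 stood at 49.4, 50.3, 78.7, 30.2, 25.1 and 28.9 CPM in members and at 9.10, 10.6, 13.5, 20.9, 4.04 and 3.35 in Shox2-negative cells, with no library reversed. That was 4.61-fold (log2 2.20 ± 0.23 SE, edgeR adjusted p = 5.31e-06). At P3 it stood at 170.3 CPM (exact 95% Poisson interval 128 to 222) against 1.96 (1.24 to 2.94). Gata6, a zinc-finger factor, rose by 0.78 ± 0.11 SE (log2, edgeR adjusted p = 0.000153).

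Of 13 pacemaker channel genes, 8 were tested, and 2 were higher with a list median of 0.46. Both encode parts of L-type calcium channels. Cacna2d2, an auxiliary subunit, stood at 355, 418, 472, 518, 231 and 242 CPM in members and 139, 131, 141, 136, 50.1 and 59.8 in Shox2-negative cells (log2 1.74 ± 0.11 SE, edgeR adjusted p = 3.64e-09). Cacna1d, the pore of the channel that opens at low voltage in pacemaker cells, stood at 25.9, 23.3, 61.2, 35.2, 55.3 and 25.3 CPM against 5.12 to 14.7 (log2 1.67 ± 0.26 SE, edgeR adjusted p = 0.000369). Cacna1h, Kcnj3, Kcnj5, Gjc1, Slc8a1 and Cacna1c did not pass, and Hcn4, Hcn2, Cacna1g and Gjd3 were among those too low for the filter. With no filter on low counts Cacna1g, a T-type calcium channel, was higher (log2 1.42 ± 0.36 SE, edgeR adjusted p = 0.00296), as was Hcn4, both by the spread shared over genes.

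All 9 genes listed as enriched in nodal tissue were tested, and 8 were higher and 1 lower, with a median of 1.87. This list was chosen with earlier results known and holds Vsnl1, a marker given with the label, so its count is no independent support. Beside Vsnl1, Igfbp5 and Bmp4 these were Smoc2, Rgs6, Ntm, Cpne5 and Ephb3. Smoc2, a secreted matrix protein, reached 137 CPM in members at E16.5 replicate 2 and 183 at P3 against 0 and 3.32, but 1 barcode gave 96.7% of its UMIs in E14.5 replicate 1. Rgs6, which shortens G protein signals of the vagus nerve, stood at 70.5, 89.5, 154, 101, 116 and 134 CPM against 23.2 to 43.5 (log2 1.87 ± 0.15 SE, edgeR adjusted p = 1.45e-07). Alcam, a cell adhesion molecule, was lower (log2 -1.04 ± 0.22 SE, edgeR adjusted p = 0.00645).

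Of 12 autonomic signalling genes, 11 were tested, and Adora1, Gnao1 and Rgs6 were higher and none lower (median 0.18). Adora1, the adenosine A1 receptor, stood at 42.3, 41.0, 99.1, 60.3, 62.8 and 43.4 CPM against 17.4 to 32.0 (log2 1.15 ± 0.16 SE, edgeR adjusted p = 0.000141). The muscarinic receptor Chrm2 (log2 -0.54 ± 0.30 SE) and the beta-adrenergic receptor Adrb1 (0.25 ± 0.31 SE) did not pass.

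Most tested genes of the working chamber list moved the other way. Of 11 working chamber genes, 8 were tested and 7 were lower, none higher, with a median of -1.42. This list too was chosen with earlier results of these data known, so its count is no independent support either. Gja1, the gap junction protein connexin 43, stood at 7.05, 13.98, 5.83, 40.2, 55.3 and 101 CPM in members against 40.8, 38.7, 80.2, 94.4, 151 and 119 (log2 -1.48 ± 0.25 SE, edgeR adjusted p = 0.000637). It was lower in each library, though by only 1.18-fold in E16.5 replicate 2. Connexin 40 (Gja5) was also lower (log2 -0.98 ± 0.18 SE, edgeR adjusted p = 0.00201), as were the small muscle protein Smpx (-1.31 ± 0.12 SE) and the homeodomain-only protein Hopx (-1.36 ± 0.17 SE).

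Nppa, the gene of atrial natriuretic peptide, was high and uneven. Members held 1124, 558, 533, 5465, 1329 and 4361 CPM in the embryonic libraries against 3116, 2669, 3339, 3831, 13889 and 12376 in Shox2-negative cells (log2 -1.86 ± 0.31 SE, edgeR adjusted p = 0.000614). Only E14.5 replicate 2 was reversed, and 1 barcode there gave 80.1% of the members' Nppa UMIs. In E14.5 replicate 1 and E16.5 replicate 1, 1 barcode gave 92.9% and 96.6% of them. A Nppa UMI was found in 28% to 79.3% of members and in 70.4% to 94.7% of Shox2-negative cells of the embryonic libraries. The part of free RNA in these shares was not tested.

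**Figure D3:**
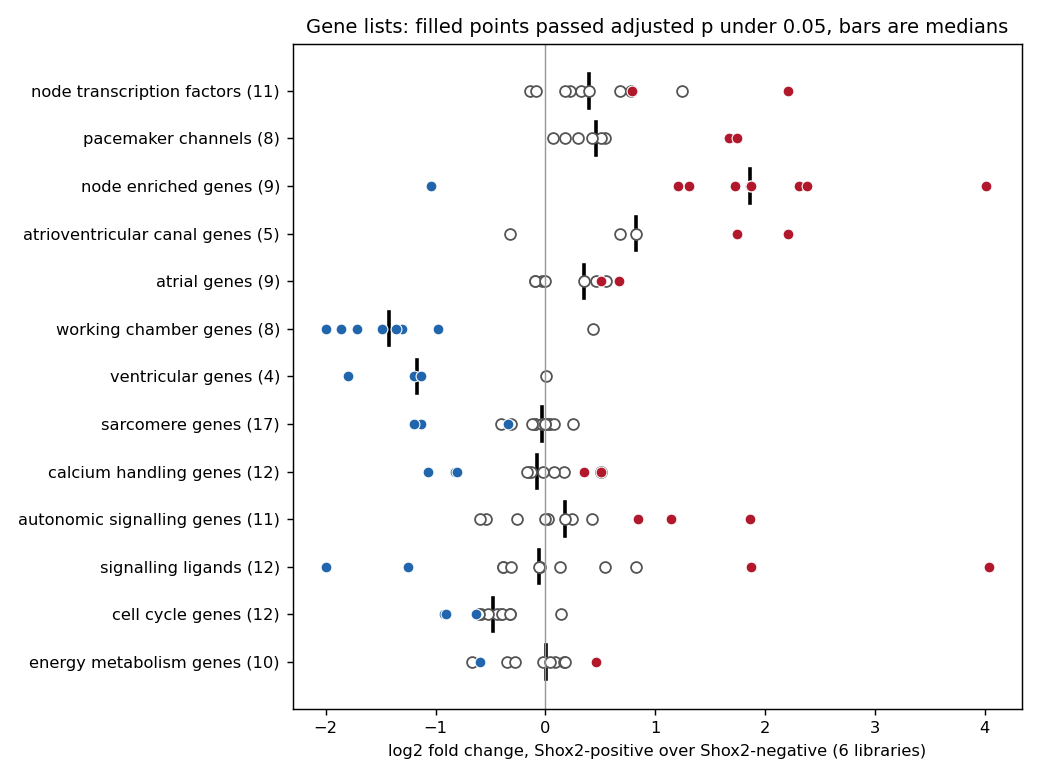
Log2 fold change of Shox2-positive over Shox2-negative cells for the tested genes of 13 lists, with the number tested in brackets. The lists were chosen with earlier results of these data known. Filled points passed an adjusted p of 0.05, open points did not, and bars are list medians; nodal genes lay to the right (median 1.87), working chamber genes to the left (median -1.42) and sarcomere genes around 0.

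Of 9 atrial genes, Sln and Nr2f1 were higher and 7 did not pass (median 0.35), while Nppa and Gja5, which atrial muscle also uses, were lower as given above. Myl7, the atrial myosin light chain, stood at 16852 to 28687 CPM in members and 19063 to 27581 in Shox2-negative cells (log2 -0.03 ± 0.07 SE, edgeR adjusted p = 0.899). The regulator of the calcium pump Sln (log2 0.51 ± 0.13 SE, edgeR adjusted p = 0.0207) no longer passed without E12.5 replicate 2, either E14.5 library or E16.5 replicate 2. Of 6 ventricular genes, 4 were tested and Myl3, Mpped2 and Myh7 were lower. Myl2 was used by the rule.

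Sarcomere genes lay near 0 as a list, with 0 of 17 higher, 3 lower and a median of -0.03. The calcium store protein gene Casq2 and the calcium pump inhibitor gene Pln were lower (log2 -0.80 ± 0.17 and -0.82 ± 0.13 SE, edgeR adjusted p = 0.00547 and 0.000356). Of 12 cell cycle genes, 3 replication genes (Pcna, Mcm2 and Mcm5) were lower and 9 did not pass (median -0.48). Pcna and Mcm5 no longer passed when any 1 library was left out. Against Shox2-negative barcodes nearest in UMIs Pcna turned to 0.11 on the log2 scale. Of 10 energy metabolism genes tested, Ppargc1a was higher and Ldha lower (median 0.01).

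Of 10 immediate early and heat shock genes, which respond to cell dissociation, 8 were tested, and Junb, Ier2 and Fos were higher in members (log2 1.03 ± 0.14, 0.79 ± 0.12 and 0.45 ± 0.12 SE, edgeR adjusted p = 6.09e-05, 0.000263 and 0.0303), with a median of 0.20. Fos no longer passed when any 1 of the E12.5 or E14.5 libraries was left out. The part of these genes in the other differences was not tested.

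Several of the largest shifts lay outside these lists. Among the 12 named genes that rose most, Fbxo32 (a muscle ubiquitin ligase), Plpp3 (a lipid phosphatase), Rxfp1 (the relaxin receptor) and Vcan (the matrix proteoglycan versican) rose by 1.54 or more on the log2 scale. Vcan stood at 149, 212, 122, 241, 50.2 and 94.0 CPM in members against 68.9, 62.9, 27.6, 35.04, 6.74 and 10.98 (4.01-fold, log2 SE 0.20, edgeR adjusted p = 2.5e-06). In each library members were higher.

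Among the 12 that fell most, Uts2b, the gene of a urotensin peptide, was low in 5 of the 6 libraries. Members held 0, 0.932, 0, 0, 5.02 and 32.5 CPM (9 UMIs in the last), against 22.6, 22.3, 46.7, 62.7, 73.3 and 59.8 in Shox2-negative cells (log2 -3.32 ± 0.44 SE, edgeR adjusted p = 5.82e-05). Kcnh7, a potassium channel of the ERG family, stood at 14.1, 13.0, 8.74, 25.1, 2.51 and 3.62 CPM against 39.9 to 53.7 (log2 -2.02 ± 0.26 SE, edgeR adjusted p = 4.6e-05). Tnnt1, slow skeletal troponin T, stood at 143 to 199 CPM against 467 to 807 (log2 -1.90 ± 0.11 SE, edgeR adjusted p = 1.22e-09). The vessel growth factor Angpt1, the caveolar protein gene Sdpr, the coregulator Cited1 and the lactate transporter Slc16a1 fell by 1.38 to 1.67 on the log2 scale.

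Libraries outside the fit gave a check of these 24 genes. At P3 all 12 of the first group were higher in members and 10 of the second lower, Tnnt1 and Wnt5a being the exceptions. The study, on visual examination, reported significant batch differences at P3 only. The same rule applied to E10.5 embryos found 22 and 13 barcodes, against 43 and 31 without Shox2. By the study's methods these embryos were digested without head and limbs, and they are not heart preparations. There 8 and 10 of the 12 were higher and 9 and 6 of the 12 lower. How many of all genes kept their direction in these libraries is not given here, so the counts have no share beside them. Igfbp5 at P3 stood at 2538 CPM (exact 95% Poisson interval 2366 to 2719.7) in members against 83.0 (77.9 to 88.4), and Bmp10 at 104 (71.6 to 146) against 547 (534 to 560.5). These intervals cover counting error only, and the members were uneven. Igfbp5 stood at 3898 CPM in the 9 P3 members with Tbx3 and 405 in the 10 without.

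Markers of other cell types were read over the same sums. The 8 mesenchymal markers summed to 50.2 to 1747 CPM in members and 89.5 to 305 in Shox2-negative cells, and members were higher in 4 of 7 libraries. The high values were E14.5 replicate 2 (1388 CPM), E16.5 replicate 2 (636 CPM) and P3 (1747 CPM), and in E16.5 replicate 2 a single barcode gave all Col3a1 UMIs. The 8 endothelial markers summed to 40.2 to 112 CPM in members and 56.1 to 112 in Shox2-negative cells of the embryonic libraries, but to 388 against 47.8 at P3, where Cdh5 stood at 97.7 against 5.19. The P3 values given here are those of members with these endothelial and mesenchymal sums. In all 7 libraries the 7 erythroid markers summed to 391 to 2076 CPM in members against 991 to 8967, and members were higher in 3 of the 7. Epicardial (2.91 to 38.8 against 8.26 to 32.9 CPM), macrophage (0 to 15.8 against 0.704 to 28.6), mural (10.6 to 67.8 against 13.5 to 43.8) and neural markers (5.02 to 60.3 against 9.61 to 16.1) overlapped between the sets. Mural markers were highest in members of E16.5 replicate 1, at 67.8 against 13.5 CPM, and neural markers in members of E14.5 replicate 2, at 60.3 against 9.61. Of these lists 1 macrophage and 2 neural markers were at 0 in members of all 7 libraries, and none of the others.

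Of those markers the tests called Kdr and Dcn higher and Hba-a1, Hba-a2 and Hbb-bt lower. With no filter on low counts, 4 other endothelial markers were lower, namely Cdh5, Pecam1, Tie1 and Npr3 (log2 -2.48, -2.31, -2.30 and -2.86, edgeR adjusted p = 0.000849, 0.00422, 0.0232 and 0.0053). The mesenchymal markers Pdgfra and Lum were then higher (log2 1.80 and 1.07, edgeR adjusted p = 0.000134 and 0.0322). Kdr, the VEGF receptor, was found in 48.8% and 48.3% of members at E12.5, while Pecam1 was found in 0 and 3 of the 43 and 58 members. Since Kdr is on the endothelial list, leaving out mixed barcodes also removes members rich in Kdr. Dcn no longer passed without E14.5 replicate 2, and Hba-a1 not without replicate 1 of E12.5 or of E16.5 or by DESeq2's Wald test. In those 2 libraries erythroid markers summed to 8967 and 8751 CPM in Shox2-negative cells. With the globin genes left out, 449 genes were called. The part of other cells in the remaining differences was not tested beyond the count without mixed barcodes given above.

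Members with and without a Tbx3 UMI differed in Nppa. Of 198 members 76 carried Tbx3. Their Nppa stood at 53.6, 104, 6.24, 32.2, 14.7 and 0 CPM in the embryonic libraries. Members without a Tbx3 UMI held 1959, 766, 996, 7929, 2011 and 5238 CPM, so members with Tbx3 were lower in each. Single barcodes weighed heavily: the member with most Nppa gave 93.4% of the UMIs without Tbx3 in E14.5 replicate 1 and 96.96% in E16.5 replicate 1. With that member left out of each library, the values without Tbx3 were 1466, 447, 72.9, 2051, 65.2 and 2579 CPM, still above the same library's members with Tbx3 but no longer clear of all of them. The P3 values were 3423 and 5621 CPM, and 1702 in place of 5621 without the highest member, which turns the direction. No member with Tbx3 was left out in this step, so trimmed values stand against untrimmed ones. This split was chosen after its values were seen, and it is given with no test.

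Other genes followed the same split less evenly. Hcn4 was found in 23.7% of members with Tbx3 and 6.56% of those without, Smoc2 in 31.6% and 11.5%, Wnt2 in 51.3% and 18.9%, Bmp4 in 53.9% and 30.3%, and Rspo3, a Wnt enhancer, in 25.0% and 3.28%. These shares pool all stages, and single libraries were reversed. By summed CPM Wnt2 stood at 0 and 0 with Tbx3 against 7.63 and 13.0 without at E16.5. In E14.5 replicate 2 Bmp4 stood at 0 with Tbx3 against 36.5 and Smoc2 at 0 against 7.31. By share of members Nkx2-5 went the other way, at 75.0% and 90.2%. Tbx18 was level over all members, at 18.4% and 18.9%, but not by stage. It stood at 48.3 and 29.7 CPM with Tbx3 against 12.6 and 8.15 without at E12.5, and at 14.7 and 21.6 against 76.3 and 60.8 at E16.5. At P3 all 22 Hcn4 UMIs of members came from those with Tbx3. These shares were not matched for depth and describe barcodes that share libraries.

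**Figure D4:**
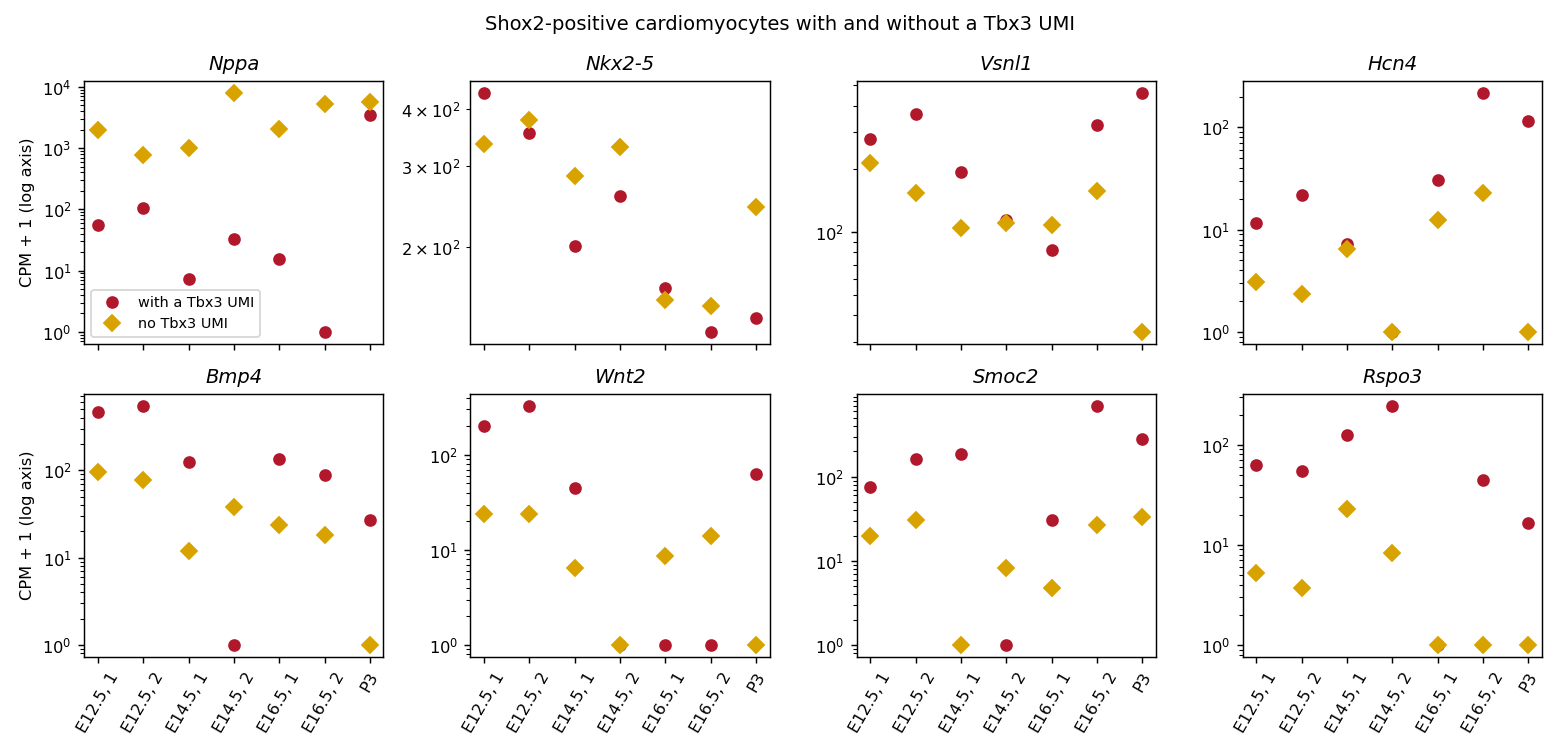
CPM plus 1 (log axis) of 8 genes in Shox2-positive cells with a Tbx3 UMI (circles) and without one (diamonds), by library. Nppa was lower with Tbx3 in all 7 libraries, at most 104 CPM in the embryonic ones, while Bmp4, Wnt2, Smoc2 and Rspo3 were higher with Tbx3 in the 2 E12.5 libraries.

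Tbx3 also marks atrioventricular canal muscle, so members were set against gate barcodes with Tbx3 and no Shox2, 102 over all heart libraries. The members in this comparison are part of those above, since E16.5 replicate 2 (6 such barcodes) and P3 were not in its test. Of the 198 members 76 carried Tbx3, so the sets differ in Tbx3 as well as in Shox2. The 5 embryonic libraries with at least 10 such barcodes (16, 22, 17, 15 and 10) were tested. In them 97 of 4246 genes differed (2.28%), 54 higher (1.27%) and 43 lower (1.01%) in members. The count fell to 43, 55, 58 and 55 without E12.5 replicate 1, E12.5 replicate 2, E14.5 replicate 1 and E14.5 replicate 2, to 51 (3 libraries) without mixed barcodes, and was 47 by DESeq2's Wald test.

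Canal ligands were lower in members. Bmp2, which patterns the canal, stood at 40.0, 44.7, 117, 15.1 and 60.3 CPM in members against 208, 167, 388, 356 and 178 in the Tbx3 set (log2 -2.11 ± 0.23 SE, edgeR adjusted p = 6.1e-05). Rspo3 stood at 0 to 80.4 CPM against 145 to 315.5 (log2 -2.75 ± 0.33 SE, edgeR adjusted p = 0.000184). In both genes the sums over all members did not overlap those of the Tbx3 set. Members with a Tbx3 UMI alone, in the same library order, held 50.9, 59.5, 193, 32.2 and 73.5 CPM of Bmp2. Of Rspo3 they held 61.7, 53.5, 125, 242 and 0 CPM. They thus reached into the Tbx3 set's range in E14.5 replicate 1 for Bmp2 and E14.5 replicate 2 for Rspo3. Of the atrioventricular canal list, 4 genes were tested and these 2 were lower, with a median of -1.64 beside 0.01 over all genes.

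Vsnl1, Bmp4 and atrial genes lay on the other side. Vsnl1 stood at 239.8, 218, 146, 111 and 98.0 CPM in members against 58.4, 74.3, 36.4, 20.1 and 16.2 (log2 1.94 ± 0.18 SE, edgeR adjusted p = 1.99e-05). Bmp4 was 2.37 ± 0.29 SE higher on the log2 scale (edgeR adjusted p = 0.000195), although in E14.5 replicate 2 the values were level at 25.1 CPM. Of 9 atrial genes, Sln, Nr2f1, Nr2f2 and Stard10 were higher and none lower. The calcium-binding protein gene Pvalb (log2 4.16 ± 0.44 SE), the peptide gene Calca (3.21 ± 0.39 SE), the kinase gene Nrk (2.35 ± 0.33 SE) and the glutamate transporter Slc17a7 (2.19 ± 0.33 SE) were also higher. So was the collagen gene Col1a2 (2.67 ± 0.34 SE), a mesenchymal marker, which stood at 231 CPM in members of E14.5 replicate 2 against 35.1.

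Lower in members were also the peptide gene Gal (-3.19 ± 0.34 SE), the metallothionein Mt2 (-2.70 ± 0.57 SE), the calcium pump Atp2b4 (-2.04 ± 0.23 SE) and the zinc transporter Slc39a8 (-1.52 ± 0.26 SE). Genes that set members apart from the whole gate did not all separate here. Igfbp5 (log2 0.15 ± 0.10 SE), Cacna2d2 (0.25 ± 0.16 SE), Id2 (0.28 ± 0.19 SE) and Nppa (0.23 ± 0.35 SE) did not pass, with edgeR adjusted p of 0.583, 0.577, 0.619 and 0.867. The Nppa sum of members joins unlike parts. In these libraries members with Tbx3 held 53.6, 104, 6.24, 32.2 and 14.7 CPM of it. Members without held 1959, 766, 996, 7929 and 2011 CPM, with the weight of single barcodes given above. Members with Tbx3 alone were not tested against the Tbx3 set.

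Members with several Shox2 UMIs could be compared with members holding 1 only when sums of 5 barcodes were allowed, since 1 library alone had 10 in each set. In 5 libraries, 19 of 1988 genes differed (0.956%), 10 higher (0.503%) and 9 lower (0.453%) with more Shox2. Vsnl1 stood at 258, 273, 169, 148 and 244 CPM with 2 or more UMIs and 106, 74.4, 89.2, 17.6 and 64.9 with 1, in the libraries other than E16.5 replicate 1 (log2 1.57 ± 0.24 SE, edgeR adjusted p = 0.00168). Nppa was lower (-1.92 ± 0.42 SE, edgeR adjusted p = 0.025), except in E14.5 replicate 2, at 6222 against 3565 CPM. Only 1 gene was left without E12.5 replicate 2 and 4 without E14.5 replicate 1.

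From E12.5 to E14.5, 122 of 4913 genes differed within members (2.48%), 62 higher (1.26%) and 60 lower (1.22%). From E14.5 to E16.5, 149 of 4913 differed (3.03%), 114 higher (2.32%) and 35 lower (0.712%). These contrasts rest on 2 libraries per stage, and the first fell to 24 without E12.5 replicate 1, 74 without E12.5 replicate 2 and 71 without E16.5 replicate 1. The second fell to 54 and 45 without E16.5 replicate 1 and replicate 2. They were 52 and 58 without mixed barcodes.

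The calcium handling genes Sln and Casq2 and the energy gene Ckm rose in members at both steps. Over the 6 libraries Sln stood at 207, 330.0, 1886, 1096, 4287 and 6647 CPM in members and 231, 183, 804, 700.2, 4124 and 4023 in Shox2-negative cells, so both sets rose. Both steps in members passed (log2 2.40 ± 0.27 SE and 2.06 ± 0.26 SE, edgeR adjusted p = 0.000415 and 0.000863). Casq2, the calcium store protein, went from 10.6 and 24.2 to 149 and 111 and then 384 and 434 CPM. The creatine kinase gene Ckm went from 64.1 and 50.3 CPM at E14.5 to 1793 and 2325 at E16.5 (log2 5.32 ± 0.26 SE, edgeR adjusted p = 2.61e-08), where Shox2-negative cells held 1706 and 1702.

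By list, sarcomere genes gave 0 higher and 4 lower of 17 at the first step and 11 higher and 0 lower at the second, with medians of -0.39 and 0.76. Energy metabolism genes gave 2 and then 4 higher of 10. Fst fell at the second step (log2 -5.61 ± 0.89 SE, edgeR adjusted p = 0.00464), as did Igfbp5 (-0.91 ± 0.15 SE, edgeR adjusted p = 0.00464) and Rspo3 (-4.36 ± 0.74 SE, edgeR adjusted p = 0.00582). Wnt2 and Bmp4 fell at the first (-2.96 ± 0.50 and -2.35 ± 0.33 SE, edgeR adjusted p = 0.0102 and 0.00347).

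**Figure D5:**
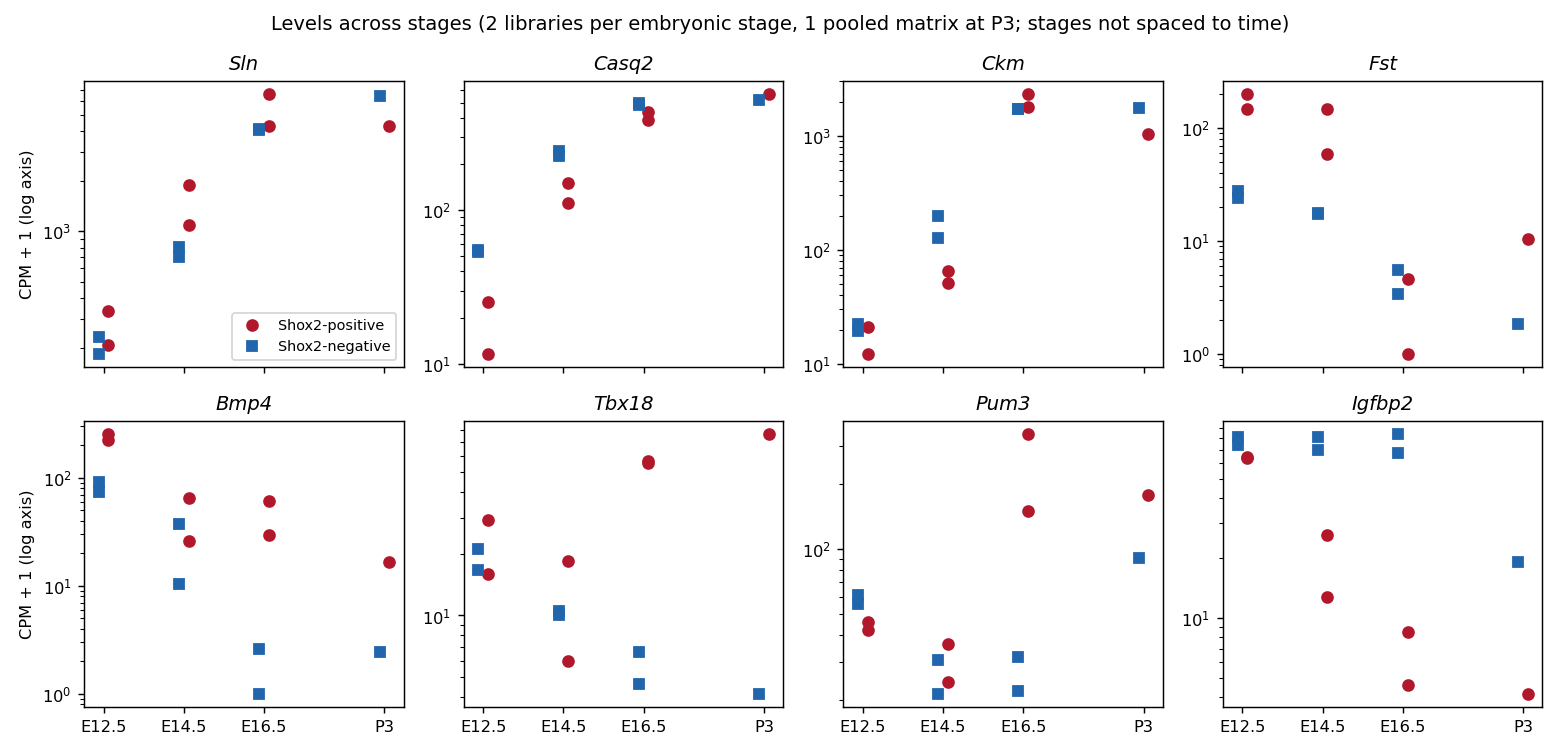
CPM plus 1 (log axis) of 8 genes in Shox2-positive (circles) and Shox2-negative (squares) cells by stage, 1 point per library. Sln, Casq2 and Ckm rose in both sets up to E16.5, with Sln and Ckm in positive cells at 4259.6 and 1044 CPM at P3, Fst fell from 199.8 to at most 9.46 CPM in positive cells, and Tbx18 and Pum3 were higher in positive cells at E16.5 and P3.

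The difference between Shox2-positive and Shox2-negative cells itself changed between E12.5 and E16.5 for 80 of 9889 genes (0.809%), 56 upward (0.566%) and 24 downward (0.243%). Without either E14.5 library the count was 180 (replicate 1) and 226 (replicate 2), without E16.5 replicate 1 or 2 it was 46 and 41, and DESeq2's Wald test gave 22. Of the 11 venous pole factors, Isl1 and Tbx18 moved upward and Nkx2-5 downward.

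Tbx18, the T-box factor of the sinus horns, was not set apart in 1 direction at E12.5 and was higher in members at E16.5. Members held 28.2 and 14.9 CPM at E12.5 against 15.6 and 20.2, and 55.3 and 54.2 at E16.5 against 5.66 and 3.66. The change was 3.20 ± 0.51 SE on the log2 scale (edgeR adjusted p = 0.00106). A Tbx18 UMI was found in 9.3% and 15.5% of members at E12.5, below the 25.2% and 25.5% of Shox2-negative cells, and in 45.0% and 41.2% at E16.5 against 9.04% and 5.07%. At P3 it stood at 75.7 CPM (exact 95% Poisson interval 48.5 to 113) against 3.15 (2.22 to 4.34).

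Nkx2-5 moved from slightly above to below Shox2-negative cells, with the values given above (change -1.01 ± 0.21 SE, edgeR adjusted p = 0.0146). Isl1 passed as well (edgeR adjusted p = 0.0248), but with 0 UMIs in Shox2-negative cells at E16.5 and 3 in members of each library, so no size is given. Id1, Id3 and Igfbp5 widened their difference by 2.22 ± 0.37, 1.29 ± 0.25 and 0.73 ± 0.15 SE (log2, edgeR adjusted p = 0.00156, 0.00979 and 0.0115). The mesenchymal markers Col1a2 and Col3a1 and the mural marker Rgs5 moved upward too, beside the 636 CPM of mesenchymal markers in E16.5 replicate 2.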

How the data were processed

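Counts of UMIs per gene and barcode were deposited by the authors as Cell Ranger matrices (headers 3.1.0 for embryonic libraries and 3.0.0 for P3; the submitters' processing notes name 2.1.1, Seurat 3.1.1 and mm10), neither normalized nor corrected for free RNA. The labels name trypsin and 3′ v2 chemistry, the study's methods collagenase II and v3. The E8.5 replicate 1 matrix was not analysed here. Embryonic matrices list 737280 barcodes and P3 10964. Members and gene lists were chosen with earlier results of these data known. No doublet caller was run.

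UMIs were summed per library and set (198904 to 1072888 in members, 1769439 to 4259553 in Shox2-negative cells of the embryonic libraries) and tested with edgeR 4.0.16 in R 4.3.3: quasi-likelihood, TMM scaling, filterByExpr, Benjamini-Hochberg over all genes tested, threshold 0.05. Both sums of a library formed a block. Stage contrasts within members had no block. Library sets under 10 barcodes were left out, which left 5 libraries for the Tbx3 comparison. The comparison by Shox2 UMIs was run in an added form with 5 barcodes. Alternatives were DESeq2 1.42.0, other filters and each library left out. The code was tested on simulated data. Genes were named from lists and as the 12 (otherwise 6) largest changes each way past the threshold with a mean log2 CPM of at least 5 and 1 direction in all libraries (for stages, no overlap), without mitochondrial and ribosomal protein genes. Some genes that the rule or the lists hold are not reported here. Genes outside this rule are Bambi, Fst and the Tbx3 split. CPM are computed from the deposited counts.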

Additional observations from a re-analysis of the deposited data

Results flagged for a closer look

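Among the 24 genes named for Shox2-positive against Shox2-negative cells, 1 had a library far from the other 5 by Dixon's test. Wnt5a had a log2 ratio of -3.72 in E16.5 replicate 1, computed with 0.5 of a count added to both sets since its members held 0 UMIs against 61 in Shox2-negative cells. Such a test marks about 1 in 20 groups by chance.

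Of the 80 genes whose difference between positive and negative cells changed between E12.5 and E16.5 by the interaction test, the 6 named in each direction are given. Of these 12, 6 no longer passed without E16.5 replicate 1, 6 without E16.5 replicate 2, 7 by DESeq2's Wald test and 5 with no replicate block, while Pum3, Tagln and Igfbp2 passed under each alternative run. Upward were Bmp4 (3.98 on the log2 scale), the RNA-binding protein gene Pum3 (3.51), skeletal actin Acta1 (3.49), the smooth muscle gene Tagln (3.40), the chemokine Cxcl12 (3.25) and Tagln2 (2.59). Downward were Igfbpl1 (-4.27), the growth factor binding protein gene Igfbp2 (-3.43), C1qtnf4 (-2.41), 2810417H13Rik (-2.22), the uncoupling protein Ucp2 (-2.10) and Lxn (-1.99).

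Bmp4 itself was lower in members at E16.5 (60.3 and 28.9 CPM) than at E12.5 (255 and 222), and Shox2-negative cells went from 72.8 and 89.9 CPM to 1.62 and 0, so its size rests on near-zero values and it no longer passed without either E16.5 library. Pum3 stood at 41.1 and 44.7 CPM in members at E12.5 against 60.1 and 54.7, and at 148 and 339.9 at E16.5 against 21.0 and 30.5, with a UMI in 75.0% and 70.6% of E16.5 members. Tagln stood at 329 and 365 CPM in members at E16.5 against 110.0 and 87.8, and was found in 70.0% and 58.8% of them. Mural markers summed to 67.8 and 10.8 CPM in the same members against 13.5 and 23.8, and their part in the Tagln change was not tested. Acta1 rested on few barcodes: 1 barcode gave 84.1% of its UMIs in members of E16.5 replicate 1 and the only ones in replicate 2. Igfbp2 stood at 63.5 and 62.4 CPM in members at E12.5 and at 7.53 and 3.62 at E16.5, while Shox2-negative cells stayed between 66.0 and 82.9 at both stages.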

How the results depend on the processing

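The 63 named and listed genes called between Shox2-positive and Shox2-negative cells kept their direction wherever an alternative tested them, except Pcna, which turned to 0.11 with Shox2-negative barcodes nearest in UMIs. With those barcodes 39 kept their call and 13 lost it, among them Id1, Casq2, Alcam, Nr2f1, Junb, Sln and the globins, and the rest were not tested there. Leaving out each library lost 6 to 11 calls, 11 of them without E12.5 replicate 1. Pcna and Mcm5 lost theirs in all 6, Ryr2 in 5, and Fos, Sln, Itpr2 and Actc1 in 4. The Wald test lost 9 and leaving out mixed barcodes 8. The number of genes tested also changed with the setting. The count of 442 called genes (of 8444 tested) became 889 of 15492 with no filter on low counts, 244 of 6980 without mixed barcodes and 125 of 4083 with the nearest barcodes. It was 592 of 8444 with no replicate block (library), and lay between 275 and 417 leaving out each library. Against Tbx3-positive cells, 97 of 4246 became 47 by DESeq2's Wald test, 236 of 13410 with no filter, 51 of 2716 without mixed barcodes (3 libraries), 80 with no block, and 43 to 132 leaving out each library. For the change between stages, 80 of 9889 became 45 with no replicate block, 22 by the Wald test, 199 of 15492 with no filter, and 41 to 226 leaving out each library. For E14.5 against E12.5, 122 of 4913 became 76 with the replicate number as a block, 74 by the Wald test, 347 of 12875 with no filter, 52 of 3782 without mixed barcodes, and 24 to 119 leaving out each library. For E16.5 against E14.5, 149 of 4913 became 109 with that block, 81 by the Wald test, 285 of 12875 with no filter, 58 of 3782 without mixed barcodes, and 45 to 183 leaving out each library. Replicate numbers did not pair libraries across stages (correlations of deviations -0.028, 0.12 and 0.049 over 4916 genes). For 2 or more Shox2 UMIs against 1, 19 of 1988 became 5 with no block, 9 by the Wald test, 45 of 12761 with no filter, and 1 to 28 leaving out each library. The causes were not tested.

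Mean shares in the gate of 22.4%, 11.7%, 8.44% and 2.45% (E12.5, E14.5, E16.5, P3) became 11.7%, 5.59%, 2.96% and 0.644% thinned to 2000 UMIs, and 17.9%, 8.09%, 6.65% and 1.29% with at least 2 Shox2 UMIs. Without a mitochondrial floor E12.5 and E14.5 were 18.8% and 8.44%, without mixed barcodes 18.3% and 9.71%, and with Myl2 under 200 CPM E12.5 and P3 were 20.6% and 1.05%. With that Myl2 limit no test was run, since at most 1 library kept 10 members, and the comparison by Shox2 UMIs was not run with other barcode limits. With 16 to 58 members per embryonic library, few UMIs lay behind a low gene. Hcn4 and Cacna1g, which the filter left out, were called with no filter, by a spread shared over genes.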
